A study of Mus musculus with 4 samples.

Results

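The response of mouse embryonic fibroblasts (MEFs) to crowding was compared between cultures labelled Lats2 KO and Lats2 WT. The comparison used all 4 samples of the series and covered 14182 of the 27745 gene names on the arrays. Probes were chosen by a rule on detection. A probe entered when it had no outlier flag and was well above background on both arrays of at least 1 density in each genotype, which left 21546 of 41174 probes, and each gene was then represented by its brightest probe. For each genotype, RNA of a high density culture (3 to 5 days) and of a low density culture (48 hours, subconfluent) was hybridised on the same 2-colour array. A second array carried the same comparison with the dyes exchanged. All cultures were C57BL/6J MEFs, labelled either Lats2-/- or Lats2+/+, with no other allele or agent named. The MEFs labelled Lats2-/- came from mice of an earlier study, and how many embryos gave the cells is not given in the sources used here.

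Each array gave the log2 ratio of high over low density, called the density effect, and the quantity described here is the effect on the arrays labelled KO minus that on the arrays labelled WT, taken within a dye orientation and averaged over both. It is called the difference. Array values are given in pairs, with high density in Cy5 first and in Cy3 second, and errors are the SD over both orientations. The dye-swapped arrays of a genotype count as 1 replicate, so no difference could be tested, and this SD holds technical error only. Time in culture differed together with density and the effects of these cannot be told apart. Both WT arrays lay on 1 slide and were scanned together, and the KO arrays lay on other slides, so slide, scan and genotype cannot be told apart either. Between 52.8% and 67.7% of the 43379 features outside controls were well above background, depending on the channel.

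The knockout label was checked first. Lats2 had 4 probes on the array, all well above background in all 8 channels. At 3 of them the level was higher on the arrays labelled KO at both densities, by 1.19 to 1.39 on the log2 scale at low density, and at the other 1 it was lower by 0.63 at low and 1.26 at high density (level differences of -0.63 and -1.26). Whether these probes lie in the deleted part of the gene is not given in the sources used here. The study describes a western blot check of its knockout MEFs, which was not analysed here. Genotype names therefore refer to the labels throughout. Lats2 fell with density under both labels. At its brightest probe the effects were -1.18 and -1.08 on the WT arrays and -1.09 and -0.95 on the KO arrays. At the probe whose level was lower under KO they were -0.46 and -0.66 against -1.296 and -1.08. The MEF label was borne out by 9 of 10 fibroblast markers, among them Col1a1, Col3a1, Pdgfrb, Vim and Dcn, which were well above background in all 8 channels. These markers did not respond alike, as the difference defined above was at least 1 for 3 of 10 and at most -1 for 2, with Thy1 at 1.501 (0.44 at its other probe) and S100a4 at -1.67. Of 10 macrophage markers 3 (Cd14, Cd68 and Fcer1g) were well above background in all 8 channels, and the defining Adgre1, Itgam, Ptprc and Tyrobp in none. Of 9 endothelial markers 0 were so in all 8 and Pecam1, Cdh5, Tie1 and Emcn in none, and of 7 epithelial markers 1 (Krt14) was so in all 8 and Epcam, Cdh1 and Krt8 in none.

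Crowded fibroblasts normally leave the cell cycle, lower actin tension and lay down matrix. The Hippo pathway is one route of this contact inhibition. Its kinases LATS1 and LATS2 phosphorylate the coactivators YAP and TAZ, which are then kept out of the nucleus and no longer drive genes through TEAD factors. The study compared growing and crowded WT MEFs as states of low and high Hippo activity, and the difference described here asks which functions responded to crowding more, less or the opposite way under the KO label.

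A difference of at least 1 in size on the log2 scale with the same sign in both orientations is called past the size rule. Above 0 it held for 815 probes (3.78% of those tested) and below 0 for 909 (4.22%). By genes, 646 were above (4.56%) and 705 below (4.97%), 9.53% in all. Most of these genes responded less under the KO label. Of the 1351 genes, 789 had the smaller effect on the KO arrays (5.56% of genes tested), made up of 451 that rose and 338 that fell with density. Another 360 had the larger effect there (2.54%), 216 as rises and 144 as falls. The remaining 202 moved in opposite directions, by at least 0.5 each (1.42%), of which 110 were up in WT and down in KO and 92 the reverse. The opposite class leaned on the normalization: counted by probes it held 260, and 111 when each array was only centred on its median. With the ratio of processed signals from the scanner files, which carries no added offset, 1538 probes were above and 1612 below 0. Of 463 such genes with several tested probes, all probes agreed in sign at 430. Of 67 such genes among those named by rule, 26 had a probe that did not pass. At all 164 genes past the size rule among those eligible to be named, the WT and KO arrays did not overlap, which the rule nearly fixes, and the SD over orientations had a median of 0.11.

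**Figure D1:**
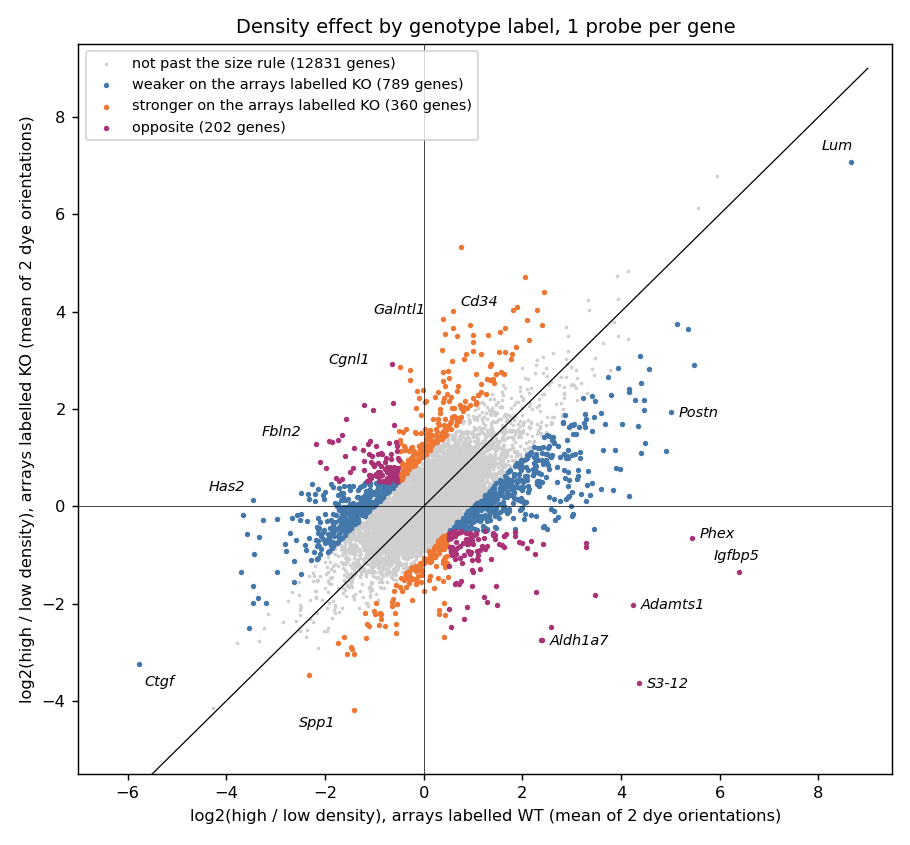
Density effect of each of the 14182 genes on the arrays labelled WT (x axis, log2 high over low density) and KO (y axis, same scale), each point the mean over both dye orientations of the gene's brightest probe. Points on the diagonal responded alike. The 789 weaker genes lie nearer to the x axis than to the y axis, and S3-12 and Igfbp5 lie farthest below the diagonal.

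Most genes of cell division fell less with crowding under the KO label. Mitosis and spindle genes fell with a median effect of -1.46 on the WT arrays and of only -0.18 on the KO arrays. All 48 members had a difference above 0, and 35 of them passed the size rule, against a background of 4.56% of genes. Each of these fell under WT and had a smaller effect in size under KO, which was slightly above 0 at some. On the WT arrays 41 members fell at least 2-fold and on the KO arrays 0 did.

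Incenp, a subunit of the chromosomal passenger complex, showed the largest difference of these genes. It fell on the WT arrays (-1.57 and -1.79) and was slightly above 0 on the KO arrays (0.30 and 0.25), a difference of 1.95 ± 0.12 (probe at chr19:9939450-9939509, mm8). Prc1, which bundles microtubules at the central spindle, gave -1.898 and -1.68 against -0.14 and 0.28 (difference 1.86 ± 0.14). For Top2a, the topoisomerase that untangles sister chromatids, the values were -2.02 and -1.99 against -0.19 and -0.14 (difference 1.84 ± 0.02). At these probes the KO arrays stayed within 0.31 of no change. A second Top2a probe gave a smaller difference of 0.91 and still fell on the KO arrays (-0.44 and -0.62).

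The promoters of these genes share a short element that the choice of members did not use. The cell-cycle homology region, TTTGAA on either strand, recruits complexes that repress late cell-cycle genes in resting cells. RefSeq promoters (GRCm38.p6, 300 bases that span the start) were available for 40 of the 48 mitosis genes and 30 held it (75.0%), against 11.6% of 9275 promoters of all genes tested and 18.1% of 27025 promoters in the table. Members past the size rule did not stand out within the list, with 22 of 29 against 8 of 11. Across all genes, 93 of 422 promoters above 0 held the element and 51 of 469 below 0. The promoters of Prc1 and Top2a are shown to place it, at position -5 in Prc1 and at positions -179 and -23 in Top2a, counted from the start. TTTGAA or its complement TTCAAA is in capitals.
Prc1, chr7:80294201-80294500, plus strand: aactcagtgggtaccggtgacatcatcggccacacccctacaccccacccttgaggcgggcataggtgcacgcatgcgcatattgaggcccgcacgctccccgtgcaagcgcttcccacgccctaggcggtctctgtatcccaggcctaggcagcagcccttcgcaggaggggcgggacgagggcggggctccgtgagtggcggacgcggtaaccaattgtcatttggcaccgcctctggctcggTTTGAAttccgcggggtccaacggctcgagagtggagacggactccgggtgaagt
Top2a, chr11:99024140-99024439, minus strand: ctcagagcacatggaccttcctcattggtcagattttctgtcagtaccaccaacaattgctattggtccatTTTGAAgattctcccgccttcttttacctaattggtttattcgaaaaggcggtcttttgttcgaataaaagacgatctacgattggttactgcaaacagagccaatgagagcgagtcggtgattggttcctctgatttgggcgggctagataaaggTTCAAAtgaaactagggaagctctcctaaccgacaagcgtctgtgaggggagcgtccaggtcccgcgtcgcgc
A match places letters and does not show that a factor was bound.

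DNA replication genes differed in the same direction but by less. The median effect was -1.35 on the WT arrays and -0.62 on the KO arrays, 46 of 48 members had a difference above 0, and 12 passed the size rule, with 0 below. At least 2-fold falls were seen for 40 members under WT and for 8 under KO. Tk1, the thymidine kinase of the salvage route, gave -2.01 and -1.91 on the WT arrays and -0.32 and -0.30 on the KO arrays (difference 1.65 ± 0.06). The large ribonucleotide reductase subunit Rrm1 gave -1.896 and -1.85 against -0.42 and -0.16 (difference 1.58 ± 0.15), and the helicase factor Cdc45l (Cdc45) -1.97 and -1.93 against -0.78 and -0.58 (difference 1.27). At these 3 genes the KO arrays were still below 0. Of 39 promoters of this list, 15.4% held TTTGAA. Among 19 genes for G1 cyclins, their kinases and the Rb and E2F families, 3 were above 0 past the size rule: E2f7 (1.29), Rbl1 (1.204) and the cyclin Ccne2 (1.003). Another E2f7 probe differed by only 0.12, and Ccne2 differed by 0.96 at its other probe and by 0.67 with the ratio of processed signals.

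Inhibitors of the cycle did not move together. Of 7 CDK inhibitors, 3 were below 0 past the size rule and 1 above, against backgrounds of 4.97% and 4.56%. Cdkn1c (p57) rose by 3.31 and 3.36 on the WT arrays and by 0.48 and 0.95 on the KO arrays (difference -2.62 ± 0.30). Cdkn2a, which encodes p16 and p19ARF, gave 1.69 and 1.58 against 0.53 and 0.48 (difference -1.13 ± 0.04), and Cdkn1a (p21) changed from 0.35 and 0.28 to -0.76 and -0.62 (difference -1.01, or -0.90 with the arrays of high density in Cy3 alone). Cdkn2d (p19INK4d) went the other way, with a difference of 1.12 (0.97 with median centring). Genes around p53 were mostly below 0: 20 of 25 had a difference below 0, 7 passed the size rule below and 0 above, and the median was -0.50 beside 0.02 over all genes. Ccng1, a direct p53 target, moved oppositely, at 0.76 and 0.72 under WT and -1.1 and -1.01 under KO. Btg2, an antiproliferative target, gave 0.48 and 0.39 against -1.16 and -1.36, and the stress protein Trp53inp1 rose in both (3.30 and 3.21 against 1.61 and 1.79).

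**Figure D2:**
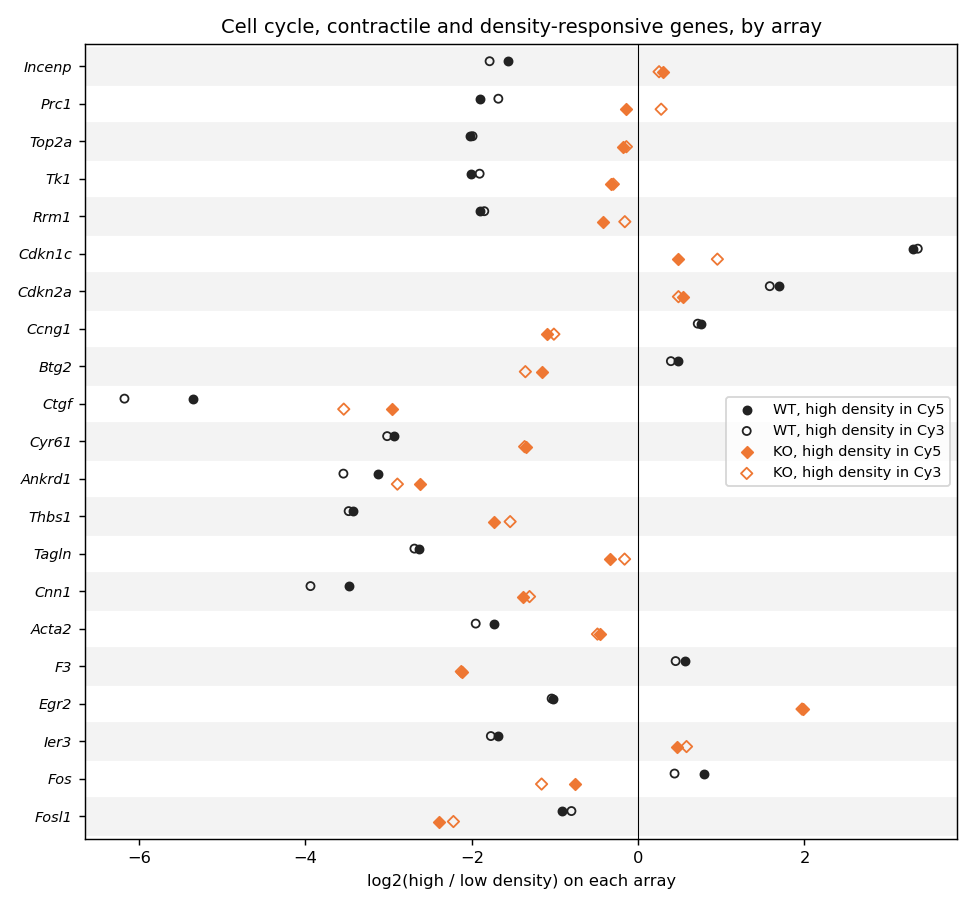
Log2 ratio of high over low density on each of the 4 arrays (x axis) for genes of the cell cycle, of p53, of YAP/TAZ and actin-linked transcription and of the immediate early response (rows). Circles are arrays labelled WT and diamonds arrays labelled KO, filled for high density in Cy5 and open for Cy3. At Incenp, Prc1 and Top2a the diamonds sit near 0 and the circles near -2, and at Egr2 and F3 the genotypes lie on opposite sides of 0.

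Actin and contractile genes driven by SRF, the factor that reads out actin polymerisation, had a smaller median fall under KO. The median effect was -1.38 under WT and -0.66 under KO, 22 of 24 members had a difference above 0 and 7 passed the size rule, all as weaker falls, with 0 below. Tagln (transgelin) stood at -2.63 and -2.69 on the WT arrays against -0.34 and -0.16 on the KO arrays (difference 2.41 ± 0.17). Calponin Cnn1 gave -3.48 and -3.94 against -1.38 and -1.31 (difference 2.37 ± 0.38). Its level under KO minus that under WT was -5.47 at low and -3.11 at high density. Smooth muscle actin Acta2 gave -1.74 and -1.95 against -0.46 and -0.49, and its 5 probes differed by 0.86 to 2.08. At these probes Tagln and Cnn1 still fell under the KO label, while the Acta2 probes parted, from -2.17 at one to a rise of 0.82 at another (means of the KO arrays). With median centring the Acta2 difference was 0.84.

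Direct targets of YAP and TAZ did not respond as a block. Of 20 measured targets 4 were above 0 and 4 below past the size rule, and the median difference was 0.38, although the list's median effect was lower under KO (-0.94) than under WT (-0.33). The matricellular genes Ctgf (Ccn2) and Cyr61 (Ccn1) fell less under KO: Ctgf gave -5.35 and -6.18 against -2.96 and -3.54 (difference 2.52 ± 0.17) and Cyr61 -2.94 and -3.02 against -1.34 and -1.36 (difference 1.62 ± 0.04). Ankrd1, a cardiac and stretch-induced repeat protein that is a further standard target, fell strongly in both (-3.13 and -3.54 against -2.63 and -2.90) and its difference of 0.58 ± 0.10 did not pass. Fjx1 rose under KO alone (-0.26 and -0.12 against 1.73 and 1.32), with a difference of 1.71, or 2.83 with the ratio of processed signals. Below 0, the coagulation receptor F3 gave 0.57 and 0.45 against -2.12 and -2.13, the ligand Tgfb2 2.18 and 2.37 against -0.03 and -0.36 and the secreted protein Ccdc80 0.91 and 0.74 against -1.08 and -0.93. These 3 rose with density on the WT arrays, unlike Ctgf, Cyr61 and Ankrd1. The CCN family, to which Ctgf and Cyr61 belong, had 2 of 5 members past the size rule above 0 and 2 below, and Wisp1 (Ccn4) was among the latter (0.90 and 1.02 against -0.40 and -0.30).

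The TEAD letters GGAATG, on either strand, were in 46.2% of 13 target promoters and 38.1% of 21 contractile gene promoters, against 11.8% of the 9275 promoters of genes tested. Among genes above 0 they were in 55 of 422 promoters and below 0 in 50 of 469, both close to that share. Cyr61 and Ankrd1 are shown because they differ in how far the genotypes parted. GGAATG or its complement CATTCC is in capitals, at position -103 in Cyr61 and at -210 and -123 in Ankrd1.
Cyr61, chr3:145649936-145650235, minus strand: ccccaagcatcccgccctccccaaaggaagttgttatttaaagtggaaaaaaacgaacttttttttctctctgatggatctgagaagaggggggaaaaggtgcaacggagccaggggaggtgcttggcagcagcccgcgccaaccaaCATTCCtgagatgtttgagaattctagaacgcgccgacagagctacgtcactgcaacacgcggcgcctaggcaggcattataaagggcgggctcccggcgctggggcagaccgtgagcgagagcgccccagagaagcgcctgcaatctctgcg
Ankrd1, chr19:36119795-36120094, minus strand: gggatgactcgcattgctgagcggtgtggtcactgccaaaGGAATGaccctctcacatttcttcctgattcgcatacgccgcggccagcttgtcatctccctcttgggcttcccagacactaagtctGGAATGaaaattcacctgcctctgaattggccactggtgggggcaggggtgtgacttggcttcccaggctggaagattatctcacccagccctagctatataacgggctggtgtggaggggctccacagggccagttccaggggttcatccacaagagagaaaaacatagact
The table held no promoter under Ctgf or Ccn2.

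Among Hippo components themselves, 2 of 23 passed the size rule (8.7%), near the 9.53% of all genes tested. Both were rises that were weaker under KO: the angiomotin gene Amot, whose protein holds YAP at junctions (1.86 and 1.78 against 0.15 and 0.20), and the giant cadherin Fat4 (2.83 and 2.81 against 1.74 and 1.72). Lats1, not well above background in every channel, gave -0.23 and -0.04 against -0.47 and -0.61, with a difference of -0.40 below the size rule. The list's median effect was -0.14 under either label.

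Immediate early genes split. Of 18 measured, 3 were above and 3 below 0 past the size rule. Egr2, a zinc finger transcription factor, fell on the WT arrays (-1.02 and -1.04) and rose on the KO arrays (1.98 and 1.97), a difference of 3.01 ± 0.003. Ier3, a survival factor, did likewise with -1.68 and -1.77 against 0.46 and 0.58. The orphan receptor Nr4a1 and the AP-1 subunits Fos and Fosl1 went the other way, with differences of -2.44, -1.58 and -1.45. Among 11 feedback genes of the ERK pathway 3 passed the size rule below 0 and 0 above, with Spry2, which dampens receptor signalling, at 1.46 and 1.43 against -0.21 and -0.66. The other Spry2 probe differed by -0.44.

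**Figure D3:**
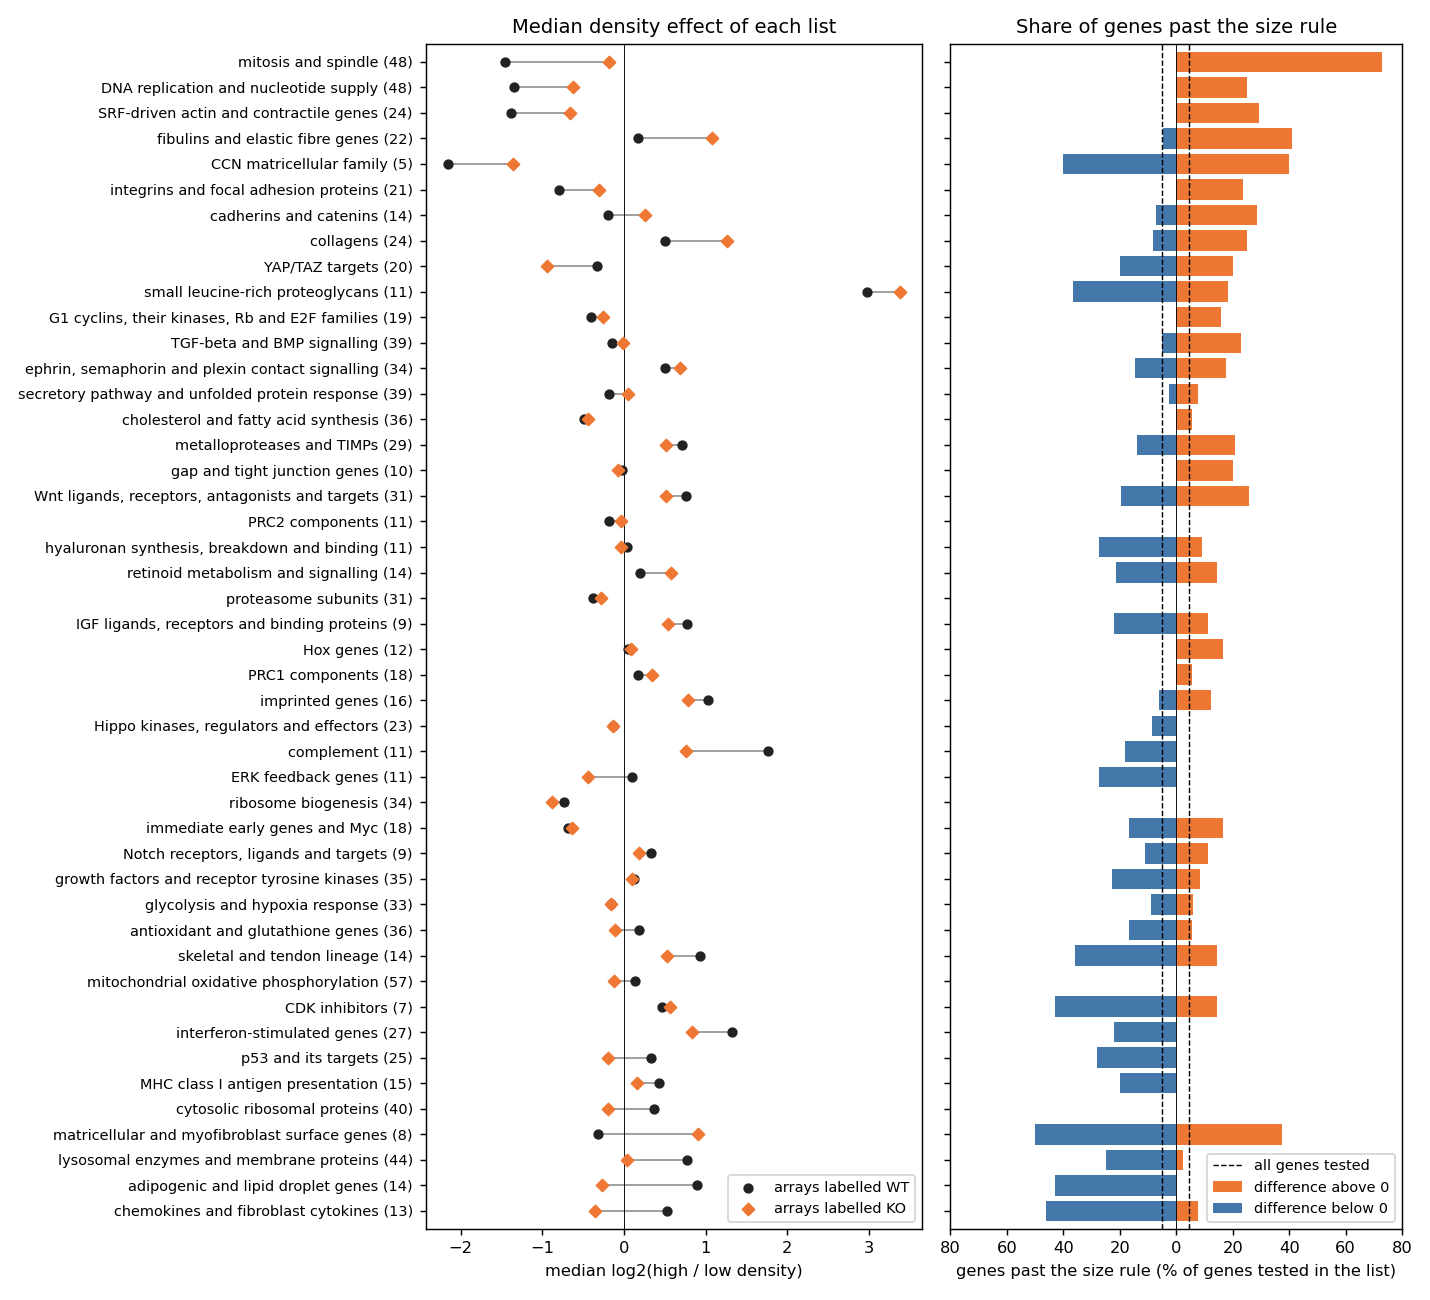
Left, median density effect of each of 46 gene lists (x axis, log2 high over low density) on the arrays labelled WT (circles) and KO (diamonds), with the number of genes tested beside each name. Right, share of a list's genes past the size rule above 0 (bars to the right) and below 0 (to the left), in percent, with dashed lines at the shares over all genes, 4.56% and 4.97%. Lists are ordered by their median difference, with mitosis first and chemokines last.

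Several lists of matrix genes had members on both sides of 0. Fibulins and elastic fibre genes were mainly above 0: 9 of 22 passed the size rule above and 1 below, 6 as stronger rises under KO and 4 as opposite changes. Fbln2, a fibulin of elastic and basement membranes, fell under WT (-2.05 and -2.33) and rose under KO (1.34 and 1.23), a difference of 3.48 ± 0.12 (probe at chr6:91237628-91237687). Ltbp2, a latent TGF-beta binding protein of microfibrils, gave -1.32 and -1.09 against 1.85 and 2.32 (difference 3.29 ± 0.17), and Fbln1 rose in both, from 2.08 and 2.03 to 4.47 and 4.94. The exception was Efemp1 (fibulin-3), which rose by 3.43 and 3.50 under WT and stood at -1.898 and -1.75 under KO (difference -5.29 ± 0.06). Its probe lies at chr11:28826538-28826597.

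Collagens had a higher median effect under KO. The median effect of 24 collagen genes was 0.50 under WT and 1.26 under KO, with 6 above and 2 below 0 past the size rule. The fibril gene Col1a1 gave 0.46 and 0.55 against 2.18 and 2.14 and Col1a2 0.91 and 0.22 against 2.44 and 2.07. Both chains of collagen I were thus higher in effect under KO, although other probes of these genes gave smaller differences, down to 1.08 for Col1a1 and 0.10 for Col1a2. The cartilage collagen Col2a1 rose under KO alone at its brightest probe (-0.49 and -0.46 against 2.92 and 2.81), while an overlapping probe fell under WT and did not rise under KO (means of -1.88 and 0.10). The fibril nucleator Col5a1 changed sign (-1.04 and -1.21 against 1.305 and 1.27). The chains of collagen VIII parted: Col8a1 gave -1.74 and -1.56 against 1.66 and 1.26, and Col8a2 3.45 and 3.71 against 0.29 and 0.41. Cthrc1, a secreted protein with a collagen repeat that limits collagen deposition, changed sign as well (-1.54 and -1.61 against 1.67 and 1.9, difference 3.37 ± 0.21, probe at chr15:38916886-38916945).

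Small leucine-rich proteoglycans, which coat collagen fibrils, were among the largest risers in both genotypes, with medians of 2.98 and 3.38 over 11 genes. Past the size rule 4 were below 0 and 2 above. Lumican (Lum) rose by 8.46 and 8.86 on the WT arrays and still by 6.98 and 7.17 on the KO arrays, the keratan sulphate proteoglycan Fmod by 2.73 and 3.00 against 0.48 and 0.69, and Omd more under KO (0.94 and 1.05 against 3.60 and 3.16). With the ratio of processed signals the Omd difference fell from 2.38 to 1.301. The median difference of this list was 0.32, but -0.04 with median centring and -1.17 with the ratio of processed signals, so no direction is given. Matricellular genes split in the same way, with 3 of 8 past the size rule above 0 and 4 below, and a median difference of -0.67 that turned to 0.41 among genes well above background in all 8 channels. Tenascin Tnc and fibronectin Fn1 changed from falls to rises at their brightest probes (Tnc -1.92 and -2.04 against 0.72 and 0.86, Fn1 -1.48 and -1.73 against 0.80 and 1.25). Their other probes rose less under KO, down to means of 0.36 for Tnc and 0.30 for Fn1, with differences down to 1.55 and 1.36. Thrombospondin Thbs1 fell less, with a difference of 1.82, and of 0.93 at a probe that did not pass. Periostin Postn rose less (4.94 and 5.09 against 1.81 and 2.07) and osteopontin Spp1 fell more (-1.26 and -1.58 against -4.15 and -4.20).

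Of 11 hyaluronan genes 1 passed the size rule above 0 and 3 below. Has2, the main hyaluronan synthase of fibroblasts, fell on the WT arrays (-3.49 and -3.45) and hardly moved on the KO arrays (0.07 and 0.17). Its brightest probe differed by 3.59 ± 0.04 (chr15:56495884-56495943) and its other probe by 4.12, where the KO arrays rose (1.006 and 1.02). Ptx3, which crosslinks hyaluronan in matrix, rose under WT alone (3.42 and 3.46 against -0.37 and -0.57), and 9930013L23Rik (Cemip), a hyaluronan-degrading protein, rose under WT and fell under KO (1.22 and 1.22 against -1.79 and -1.94). Vcan, the large hyaluronan-binding proteoglycan, was at -1.44, with -0.35 at another probe. The other 7 genes did not pass, and over the list 6 of 11 differences were above 0 with a median of 0.06.

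Proteases and their inhibitors followed no common direction, with 6 of 29 past the size rule above 0 and 4 below. The inhibitors Timp1 and Timp3 passed above 0, as Timp1 gave -3.34 and -3.84 under WT and -0.74 and -0.42 under KO, and Timp3 rose under KO (0.30 and 0.46 against 2.77 and 2.76). The proteoglycan-cleaving enzymes Adamts1 and Adamts5 passed below 0 and changed sign. Adamts1 gave 4.20 and 4.30 against -1.56 and -2.48 (difference -6.27 ± 0.72, probe at chr16:85683995-85684054), and Adamts5 1.51 and 1.41 against -1.79 and -1.48. Both had a second probe in agreement, at -5.39 and -2.70. In the IGF list the binding protein Igfbp5 stood at 6.21 and 6.56 under WT and -1.304 and -1.42 under KO (difference -7.74 ± 0.33), but its second probe differed by -1.44 only. The ligand Igf1 rose less under KO (4.18 and 4.37 against 2.26 and 2.10, with a difference of -0.21 at another probe). Igfbp4 rose more (1.79 and 1.75 against 3.08 and 2.98, with a difference of 0.885 at its other probe).

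Genes of mineral and tendon lineages passed the size rule below 0 at 5 of 14 and above 0 at 2 of 14. Phex, an endopeptidase of bone cells, rose by 5.17 and 5.69 under WT and stood at -0.70 and -0.59 under KO (difference -6.08 ± 0.28), and the tendon factor Scx gave 1.93 and 2.25 against -0.95 and -0.78. In the other direction, the calcification inhibitors Mgp (0.82 and 0.38 against 3.80 and 3.53) and Enpp1 (-0.27 and -0.28 against 2.75 and 2.83) rose under KO far more than under WT. Mgp and Enpp1 were named by size and belong to no list.

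**Figure D4:**
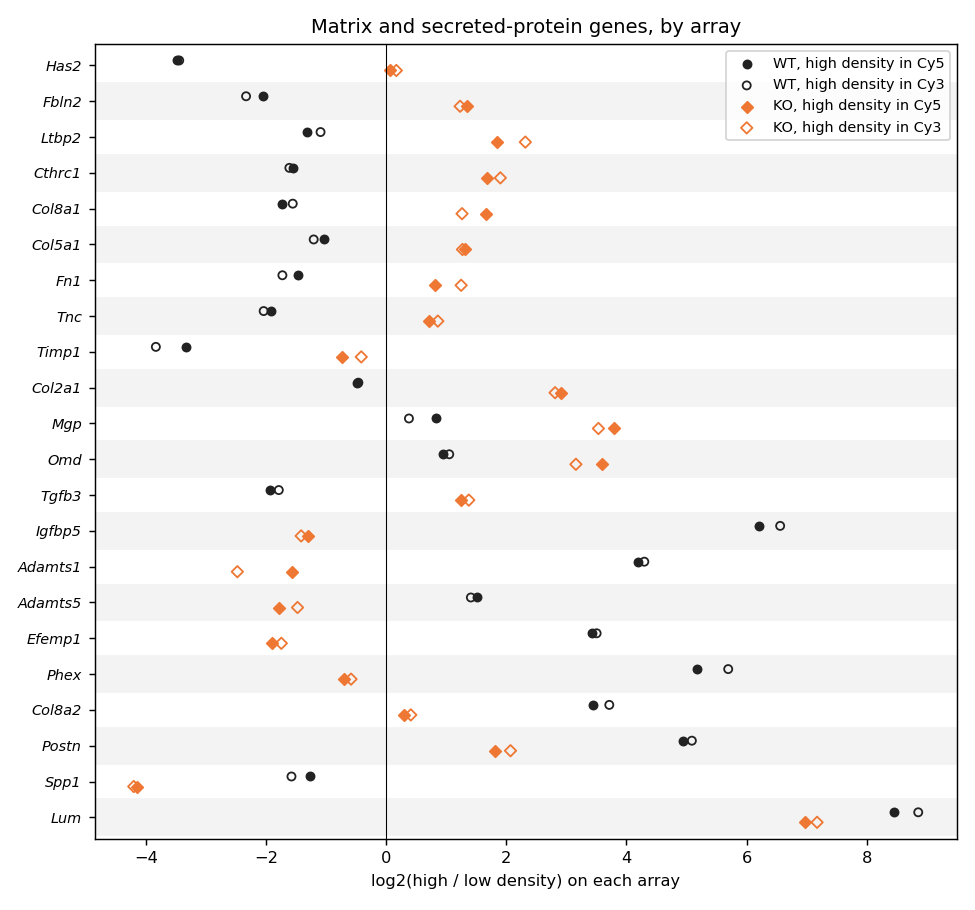
Log2 ratio of high over low density on each array (x axis) for 22 genes of matrix and secreted proteins (rows), with symbols as in the plot of cell-cycle genes. Circles (WT) lie left of the diamonds (KO) from Has2 to Tgfb3 and right of them from Igfbp5 to Lum, and dye orientations of a genotype lie close together.

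Cell adhesion to the matrix was also mainly above 0. Of 21 integrin and focal adhesion genes 18 had a difference above 0, 5 past the size rule, and 0 passed below. Itgb3, the beta chain of vitronectin receptors, fell under WT (-2.18 and -2.01) and rose under KO (0.83 and 0.997), a difference of 3.01 ± 0.006, with 0.59 at its second probe. The fibronectin receptor chain Itga5 fell less (-2.25 and -2.11 against -0.85 and -0.52) and Itga8 rose under KO alone (0.09 and 0.04 against 1.497 and 1.47). Among cadherins and catenins 4 of 14 passed the size rule above 0 and 1 below, with Cdh3 changing sign (-0.54 and -0.55 against 1.4 and 0.88) and Cdh11, the mesenchymal cadherin, rising less (2.65 and 2.40 against 1.27 and 1.11, with a difference of -0.35 at another probe). Of 10 junction genes tested, Cgnl1 (paracingulin) stood out at -0.78 and -0.49 against 2.69 and 3.16, with differences of 0.80 to 3.56 over its 3 probes. In the contact signalling list (ephrins, semaphorins, plexins) 6 of 34 passed the size rule above 0 and 5 below. The receptor Epha4 changed from -1.38 and -1.62 to 0.95 and 0.45 (-0.01 under KO at its other probe), Epha2 fell more (-0.94 and -0.86 against -2.52 and -2.37) and the ligand Efnb2 changed sign downwards (0.80 and 0.65 against -0.66 and -0.96, with a difference of -0.62 at its other probe).

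Ligands of the TGF-beta family parted. Tgfb3 fell under WT (-1.94 and -1.79) and rose under KO (1.25 and 1.38), a difference of 3.18 ± 0.02, whereas Tgfb2, given above, was below 0. Over 39 genes of TGF-beta and BMP signalling 9 passed the size rule above 0 and 2 below. Fstl1, a secreted glycoprotein, rose more under KO (0.70 and 0.67 against 2.28 and 2.44) and the pseudoreceptor Bambi was below 0 (-1.11). Wnt genes were spread, with 8 of 31 past the size rule above 0 and 6 below. The ligand Wnt2 (1.02 and 0.98 against 3.27 and 3.10) and the antagonist Sfrp1 (2.07 and 2.12 against 4.06 and 3.59) rose more under KO, while the ligand Wnt5b (3.56 and 3.72 against 1.05 and 1.25) and the agonist Rspo2 (1.97 and 1.81 against 0.10 and 0.21) rose less. The receptor Notch3 rose under WT alone (2.92 and 2.92 against 0.28 and 0.08).

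Growth factors and receptor tyrosine kinases passed the size rule below 0 at 8 of 35 and above 0 at 3. The Axl-family ligand Gas6 (2.57 and 2.72 against -0.16 and -0.04) and the stem cell factor Kitl (1.44 and 1.19 against -0.14 and -0.27) rose under WT alone, and pleiotrophin Ptn (5.52 and 5.20 against 3.96 and 3.33) rose less under KO. Egfr, the epidermal growth factor receptor, rose more (0.65 and 0.29 against 2.49 and 2.10), its 5 probes differing by 0.81 to 1.83. The ligand Fgf7 changed sign, at -0.59 and -0.55 against 0.73 and 0.72.

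Interferon-stimulated genes rose with crowding at a lower median under KO. Of 27 interferon-stimulated genes 25 had a difference below 0, 6 past the size rule, and 0 passed above, with a median effect of 1.32 against 0.83. Lgals3bp, a secreted galectin-binding protein, gave 2.88 and 2.80 against 1.04 and 1.099, the ADP-ribosyltransferase Parp14 2.33 and 2.61 against 0.996 and 0.89 and the virion tether Bst2 1.82 and 1.68 against 0.42 and 0.56. A second Parp14 probe differed by -0.23 only, and the brightest by -2.91 with the ratio of processed signals. Outside the list, a larger and opposite change was seen in Tgtp (Tgtp1), an interferon-induced GTPase with near copies in the genome, at 2.56 and 2.60 against -2.62 and -2.36 (difference -5.07 ± 0.16). Of 15 genes of MHC class I presentation 3 passed the size rule below 0 and 0 above, among them the immunoproteasome subunit Psmb10 (-1.37) and the peptidase Arts1 (Erap1, -1.05). Of 11 complement genes 2 passed below 0 and 0 above, and the median difference was -0.12, with the central component C3 at 3.31 and 3.53 under WT and 0.42 and 0.52 under KO and C4b at a difference of -1.304, or -2.01 with the ratio of processed signals.

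Chemokines had a median difference of -0.91 over 13 genes, with 6 past the size rule below 0 and 1 above. The monocyte attractants Ccl2 and Ccl7 changed sign: Ccl2 gave 1.04 and 0.60 against -1.98 and -2.67 and Ccl7 1.05 and 0.92 against -1.23 and -1.396. Ccl9 moved little under WT and fell under KO (0.41 and 0.19 against -2.12 and -2.30), and Cx3cl1 was the 1 that passed above 0 (0.14 and 0.40 against 1.41 and 1.64). Among genes well above background in all 8 channels the median was -0.52 over 8 genes, closer to 0 than in the lysosomal or adipogenic list.

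Adipogenic genes showed the largest single difference. S3-12 (Plin4), a lipid droplet coat protein, rose by 4.29 and 4.44 on the WT arrays and stood at -3.75 and -3.51 on the KO arrays, a difference of -8.00 ± 0.06 (probe at chr17:55693925-55693984). Of 14 genes in the list 6 passed the size rule below 0, 4 of them as opposite changes, and 0 above. Pparg, the master factor of fat cells, gave 0.82 and 0.69 against -1.39 and -1.67, and the early factor Cebpb 1.25 and 1.25 against -0.80 and -0.98. Fabp3, a fatty acid carrier outside the list, changed sign in the same direction (1.39 and 1.59 against -2.13 and -1.94). Of 14 retinoid genes 3 passed below 0 and 2 above: the aldehyde dehydrogenase Aldh1a7 gave 2.37 and 2.44 against -2.66 and -2.84 (difference -5.16 ± 0.17), and the retinoic acid hydroxylase Cyp26b1 changed in the other direction (-0.50 and -1.07 against 1.303 and 0.51). Aldh1a7 has a close paralog in Aldh1a1, and what this probe detects of each was not tested.

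Lysosomal genes differed almost as evenly as the mitosis genes, with the sign turned. The median effect of 44 genes was 0.77 under WT and 0.04 under KO. Of them 43 had a difference below 0, 11 passed the size rule below and 1 above, and rises of at least 2-fold were seen for 14 under WT and for 3 under KO. The membrane protein Lamp2 gave 2.23 and 2.01 against 0.52 and 0.30 (difference -1.72 ± 0.004), the sialidase Neu1 1.64 and 1.63 against 0.01 and 0.02 and the hexosaminidase chain Hexa 1.203 and 1.06 against -0.30 and -0.30. The single exception was prosaposin, Psap (-0.04 and 0.05 against 1.06 and 1.37), whose difference was 0.96 with median centring. The probes of Lamp2 ranged from -1.72 to -0.19.

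Antioxidant genes passed the size rule below 0 at 6 of 36 and above 0 at 2. The peroxiredoxin Prdx4 rose under WT alone (2.76 and 2.78 against 0.00 and 0.20), as did the microsomal glutathione transferase Mgst1 (1.94 and 2.05 against -0.04 and -0.03), and the quinone reductase Nqo1 fell less under KO. The level of Mgst1 under KO was 6.89 to 6.955 over both densities, near that of the epithelial marker Krt14 (6.43 to 6.75). Low signal thus limits its KO effect, and its difference reached -3.04 in another setting. The Nqo1 difference was 1.02, but 0.97 with the ratio of processed signals and 0.87 with the arrays of high density in Cy5 alone. Metallothionein Mt1, outside the list, gave 3.40 and 3.17 against -0.62 and -0.90, and its second probe differed by -1.997. Genes of the secretory pathway and unfolded protein response passed the size rule above 0 at 3 of 39 (7.69%) and below 0 at 1 (2.56%). Over all genes tested these shares were 4.56% and 4.97%. Asparagine synthetase Asns (-1.15 and -1.03 against 0.49 and 0.78) and the glutathione-degrading Chac1 (-1.33 and -1.34 against 0.04 and 0.06) were above and the stress factor Ddit3 below (1.52 and 1.64 against 0.15 and 0.34). In the glycolysis and hypoxia list 2 of 33 passed above 0 (6.06%) and 3 below (9.09%). Among them were the phosphofructokinase Pfkp at 1.56 (0.61 at another probe) and the hypoxia-responsive Ndrg1 at -1.54. Of 36 cholesterol and fatty acid synthesis genes 2 passed above 0 and 0 below, near the background of 4.56%.

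Of the 4 housekeeping lists none had a gene past the size rule. No cytosolic ribosomal protein gene passed the size rule (0 of 40), yet all 40 differences were below 0, with a median of -0.56 and single values from -0.97 to -0.02. The median was -0.94 with median centring and -0.39 with the ratio of processed signals. Oxidative phosphorylation genes had 48 of 57 below 0 and a median of -0.30 (-0.51 with median centring), proteasome subunits a median of 0.04 over 31 genes (-0.14 with median centring) and ribosome biogenesis -0.12 over 34. Ribosome biogenesis genes fell with density to a like extent under both labels, with medians of -0.73 and -0.88.

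PRC2, the Polycomb complex that lays down repressive histone methylation, had 0 of 11 components past the size rule. The catalytic subunit Ezh2 gave -1.24 and -1.22 under WT and -0.35 and -0.41 under KO (difference 0.85 ± 0.05), in the direction of the replication genes. The core subunits Eed (-0.66 and -0.79 against -0.64 and -0.41) and Suz12 (-0.79 and -0.82 against -0.45 and -0.66) fell under both labels, with differences of 0.20 and 0.25. In PRC1 1 of 18 passed above 0 (5.56%, beside 4.56% over all genes). This was Rybp, at 0.35 and 0.17 against 1.61 and 1.56, with 0.37 at its second probe. Of 12 Hox genes tested 2 passed the size rule above 0 and 0 below, Hoxb9 (-1.76 and -1.71 against 0.22 and -0.11) and Hoxb5 (-0.17 and -0.15 against 0.92 and 0.90). Of 16 imprinted genes 2 passed above 0 and 1, Cdkn1c, below. The growth-linked Plagl1 (2.64 and 2.23 against 4.41 and 4.40) and Dlk1 (2.44 and 2.35 against 3.98 and 3.45) rose under both labels and more under KO, although with median centring the Dlk1 difference was 0.81.

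Some of the largest single differences lay outside the lists. The glutamate transporter Slc1a6 fell under WT and hardly moved under KO (-3.70 and -3.64 against -0.45 and 0.06). The glycosyltransferase Galntl1 (Galnt16) rose mainly under KO (0.25 and 0.52 against 3.78 and 3.94), and the surface sialomucin Cd34 did as well (0.63 and 0.55 against 3.92 and 4.11). The proprotein convertase Pcsk6 (-1.62 and -1.86 against 1.38 and 1.33) and the membrane protein C030003D03Rik (Tmem200a, -1.94 and -1.89 against 1.35 and 1.35) changed sign upwards. Below 0, the matrix protein Sned1 (4.49 and 4.31 against 1.08 and 1.11) and the Cdk adaptor Cables1 (4.81 and 5.02 against 0.96 and 1.299) rose in both and less under KO, and Uap1l1 changed sign (2.26 and 2.27 against -1.14 and -0.83). The uncharacterised 3110039M20Rik gave 3.06 and 3.51 against -0.84 and -0.82. Of markers of other cell types, the intermediate filament Nes passed above 0 (-2.17 and -2.22 against 0.33 and 0.16), with a level under KO minus WT of -6.20 at low and -3.76 at high density, and so was cardiac actin Actc1 (-2.07 and -2.26 against -0.76 and -0.87). Of 6 neural markers 3 (Nes, Tubb3 and Map2) were well above background in all 8 channels and 3 (Sox2, Gfap and Olig2) in none, and of 6 skeletal muscle markers 1 (Actc1) was so in all 8 and 4 (Myog, Myf5, Des and Myh3) in none.

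The difference in effect can come from the low density level, the high density level or both, and the lists differed in this. Levels are on the log2 scale after scaling between arrays, compare different slides, which cannot be told apart from genotype. Scaling by each array's median in place of Aquantile was chosen after seeing the data. It moved 8 of 14 list medians by more than the spread over dye orientations. No median of at least 0.5 in size changed sign, and the count does not cover sign changes of smaller ones. Mitosis genes were lower under KO at low density (median -0.995, 43 of 48 below 0) and slightly higher at high density (median 0.35). The genotypes were at least 2-fold apart for 24 members at low density and for 0 at high density. The level of Incenp under KO minus that under WT was -1.32 at low and 0.64 at high density, and for Prc1 it was -1.77 and 0.09. With scaling by medians the mitosis values were -0.92 and 0.41. Contractile genes were lower under KO at low density (median -0.65, 20 of 24 below 0), with a median of 0.18 at high density. Replication genes were lower under KO at both densities, with medians of -1.17 and -0.42.

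Lysosomal genes mirrored this, higher under KO at low density (median 0.61) and level at high density (-0.08). Interferon-stimulated genes crossed from 0.54 to -0.28 and adipogenic genes from 0.51 to -0.62. Elastic fibre genes were the reverse of the mitosis genes, as 9 of 18 were at least 2-fold apart at high density and 3 at low, with medians of 0.66 and -0.15. Fbln2 differed by -0.29 at low and 3.18 at high density and Tgfb3 by -0.39 and 2.79. Ctgf was -0.48 apart at low density and 2.03 at high density, Cyr61 -1.47 and 0.16, so the genotypes were further apart at high density for Ctgf and at low density for Cyr61. Igfbp5 and S3-12 crossed, from 3.52 to -4.23 and from 2.41 to -5.59. Postn, by contrast, was higher under KO at both densities (5.74 and 2.67), and Spp1 lower at both (-2.46 and -5.22). Over all genes well above background in all 8 channels, 1909 of 12946 were at least 2-fold apart at low density and 1607 at high density.

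**Figure D5:**
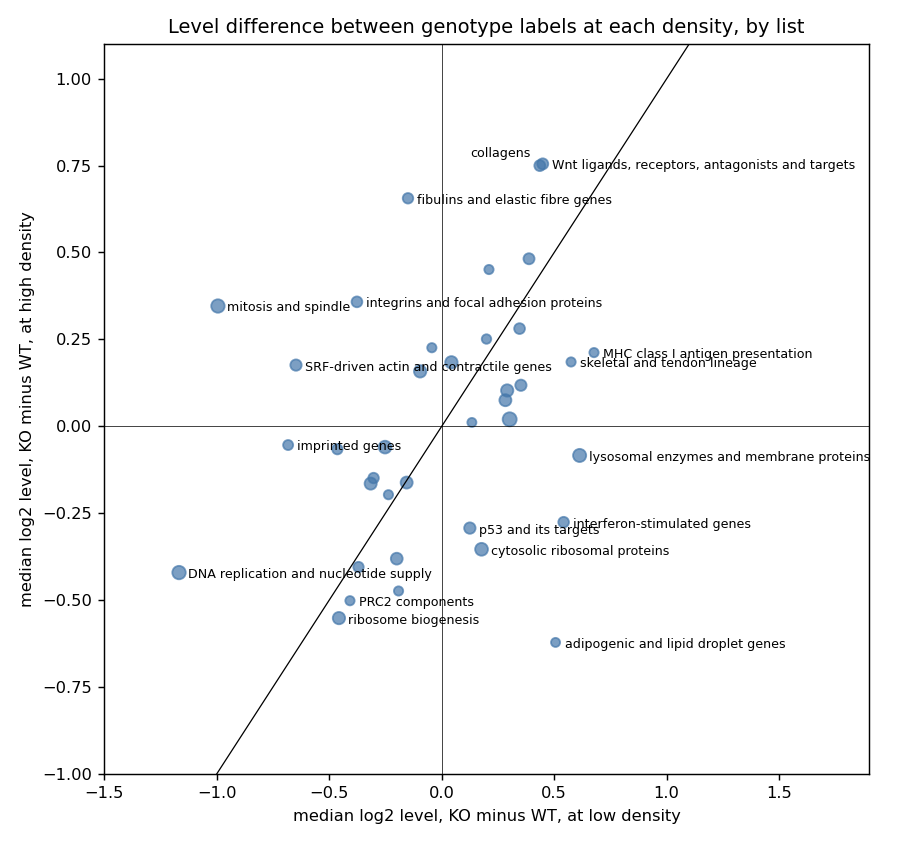
Median log2 level under the KO label minus that under the WT label at low density (x axis) and at high density (y axis), for each gene list with at least 10 genes well above background in all 8 channels. Point area grows with the number of genes, and the vertical distance from the diagonal approximates the median difference in density effect. Mitosis genes lie left of 0 and just above it, and lysosomal genes right of 0 and near it.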

How the data were processed

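RNA of MEFs labelled Lats2 KO or WT was measured on 4 Agilent 2-colour arrays, 2 per genotype with exchanged dyes. Per the file headers, arrays were extracted by the authors with Agilent Feature Extraction 10.5.1.1, with probe positions on mm8. The deposited files hold the intensity of each spot and of its background on a linear scale, and per the file headers the log10 ratio of Cy5 over Cy3 processed signals, background-subtracted and dye-normalized by the software, with flags for background and outliers. The log10 value table deposited for the series holds the same ratios, equal within 1% at all 45018 features of each array once turned to high over low density, and added nothing here.

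Groups and dyes came from the labels. Control spots and flagged spots were left out. Spot signals were background-corrected (normexp, offset 50), put through loess within arrays and averaged per probe with limma 3.58.1 in R 4.3.3, with ratios turned to high over low density, and levels alone were scaled between arrays by Aquantile. A probe was well above background in a channel when at least 0.5 of its spots were. Further steps used Python 3.11.15. A gene was its brightest tested probe, and probes of a gene can disagree. The number of arrays limits the precision, and with 1 replicate per genotype no test was made. The size rule was tested on simulated data.

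Members and lists were chosen with earlier results of these data known. Of 1289 genes in 46 function lists and 6 marker lists, 1279 were on the array and 1066 tested. Genes were named by a rule: the 15 most above and 15 most below 0, the 10 largest opposite changes, up to 3 in each direction per list (the largest difference where fewer passed), all well above background in all 8 channels, and Lats2, Lats1, Ctgf, Cyr61, Ankrd1, Ezh2, Eed and Suz12. Array gene names can be old, and 19611 of 27745 were found in the RefSeq gene table, from which current symbols in parentheses were taken. Promoters were RefSeq sequences on GRCm38.p6. No annotation of mm8 was given, so exons and introns were not assigned. Alternatives covered centring, scaling, the signal, the offset, the detection filter, the size threshold, each dye orientation alone and, for list medians, the mean over probes. Scaling of levels by array medians was added after seeing the data. Some results are not reported here.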

Additional observations from a re-analysis of the deposited data

Results flagged for a closer look

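At the brightest probe of 19 of the named genes both arrays of one genotype moved one way and both arrays of the other the opposite way, with a mean effect of at least 2-fold in each. With 1 replicate per genotype none of these differences was tested. They fell under KO and rose under WT at S3-12 (difference of -8.00 on the log2 scale), Igfbp5 (-7.74), Adamts1 (-6.27), Efemp1 (-5.29), Aldh1a7 (-5.16), Tgtp (-5.07), Fabp3 (-3.53), Adamts5 (-3.09) and 9930013L23Rik (Cemip, -3.08). The reverse was seen at Fbln2 (3.48), Cthrc1 (3.37), Ltbp2 (3.29), C030003D03Rik (Tmem200a, 3.26), Tgfb3 (3.18), Col8a1 (3.11), Pcsk6 (3.09), Egr2 (3.01), Fn1 (2.63) and Col5a1 (2.41). Both probes of Adamts1 and of Adamts5 met this rule, but other probes of some of these genes did not. Mean effects under WT and KO were -0.715 and 0.53 at C030003D03Rik, -0.56 and 0.695 at Col5a1, -1.06 and 0.30 at Fn1 and 1.09 and -0.36 at Igfbp5. Over all genes tested, 33 met this rule by their mean effects, 18 of them up under WT and 15 up under KO.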

How the results depend on the processing

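Counts of probes depended on the signal and the threshold. In the main setting 815 probes were above 0 and 909 below, 994 weaker, 470 stronger and 260 opposite under the KO label, 38 of them opposite by 2-fold each. With the ratio of processed signals these counts were 1538, 1612, 1788, 849, 513 and 125. With a normexp offset of 10 the opposite class at 2-fold each held 67, and with median centring the opposite class held 111. At 1.4-fold the counts were 2935 above, 2939 below, 3234 weaker and 2380 stronger, and at 4-fold 116 above, 150 below, 108 weaker, 57 stronger and 101 opposite, which follows from the threshold. The cause of the other changes was not tested.

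With 1 dye orientation alone, 853 to 877 probes were above 0, 912 to 976 below, 965 to 1033 weaker, 533 stronger, 267 to 287 opposite and 38 to 40 opposite by 2-fold each. The median difference over all genes lay between -0.03 and 0.02 in every setting. All 164 genes past the size rule among those named by rule kept their sign in each of the 7 alternatives run for single genes, and between 156 and 164 stayed past it. Among those that did not, Acta2, Dlk1, Cdkn2d and Psap fell below the rule with median centring, at 0.84, 0.81, 0.97 and 0.96. Ccne2 and Nqo1 did with the ratio of processed signals, at 0.67 and 0.97. Cdkn1a did with the arrays of high density in Cy3 alone, at -0.90, and Nqo1 and Ccne2 with those in Cy5 alone, at 0.87 and 0.86. Further genes that fell below the rule are not listed here. The mean over probes was run for list medians only. Of 52 list medians 29 moved by more than the spread over orientations with median centring and 25 with the ratio of processed signals. The median of the matricellular list turned from -0.67 to 0.41 among genes well above background in all 8 channels. No paired analysis was possible because a genotype holds 1 replicate. Low signals limit the effects of 169 genes past the size rule that were not well above background in every channel. Some named genes that were well above background in all 8 channels also had levels near those of Krt14 (6.43 to 6.75). Under KO these were C3 (6.49 to 7.16), Phex (6.59 to 7.49) and Mgst1 (6.89 to 6.955), among others. Fjx1 was at 6.32 to 6.725 under WT. Small effects at such levels are limited by low signal as well.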
